A study of Mus musculus with 16 samples.

Results

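The Krüppel-like factors (KLFs) are zinc-finger transcription factors, and 10 of their genes, Klf2, Klf3, Klf4, Klf6, Klf7, Klf9, Klf10, Klf11, Klf13 and Klf16, were followed through a macrophage experiment. They were taken by symbol from a table of 46320 genes, which holds 17 Klf genes, and the symbols were chosen with earlier results of these data known. The cells were bone marrow-derived macrophages of C57BL6/J mice, grown for 7 days with L929-conditioned medium as the source of the growth factor M-CSF and starved for 4 h in 0.5% serum. They then spent 4 h with thrombin-activated platelets, with resting platelets, with thrombin alone, or with PBS as vehicle, in 4 libraries per condition and 16 in all. The platelets came from blood of mice of the same strain, and platelets carry RNA of their own. The thrombin dose is stated as 0.01 U/mL in the protocol and as 0.1 U/mL in the labels of the thrombin libraries, and the labels of the activated platelet libraries give none. Comparisons between those conditions assume the same dose.

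KLFs bind GC-rich and CACCC sequences through their zinc fingers at the C-terminal end, and their other regions recruit coactivators or corepressors. Klf2 and Klf4 are known as regulators of endothelial and myeloid cell activation, Klf2 as a brake on macrophage activation and Klf4 as a factor of monocyte differentiation and of alternative polarisation. Klf6 is known from mouse macrophages as a promoter of inflammatory gene expression. Klf3 is a repressor that works through the corepressor CtBP, whereas Klf9, Klf10, Klf11, Klf13 and Klf16 share a Sin3-binding repression motif.

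With activated platelets 3 of the 10 genes fell and 1 rose relative to vehicle. Klf2 fell 1.99-fold, Klf6 fell 1.36-fold and Klf3 fell 1.29-fold, while Klf10 rose 1.29-fold. With resting platelets none of the 10 passed the threshold relative to vehicle, but in a fit with the replicate number as a block Klf2 (adjusted p = 0.00811) and Klf10 (adjusted p = 0.0168) did. With thrombin alone 0 of the 10 passed, with or without that block. Levels are given as CPM, the usual library-size scaled count, on library sizes corrected by TMM. The words rose, fell and called are kept for genes for which edgeR's quasi-likelihood test gave a Benjamini-Hochberg adjusted p below 0.05 over all 15610 genes tested. All 10 members passed the filter on low counts.

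Totals in mega counts (M) were 28.0 to 30.6 M with activated platelets, 24.9 to 26.4 M with resting platelets, 23.1 to 26.7 M with thrombin and 22.6 to 27.7 M with vehicle. Markers of macrophages summed to 16030 to 20930 CPM with activated platelets and to 16550 to 20870 CPM with vehicle. Of those 7 markers, Csf1r, Adgre1 and Lyz2 among them, 1 rose and 1 fell. Lyz2 was the largest part of the sum, at 12700 CPM with activated platelets and 12850 CPM with vehicle. Fcgr1 averaged 165.5 ± 6.44 CPM with activated platelets and 127 ± 4.62 CPM with vehicle (SD, n = 4). Mertk averaged 158 ± 21.7 CPM with activated platelets and 211 ± 32.1 CPM with vehicle. Platelet markers summed to 149 to 222 CPM with activated platelets, 25.2 to 51.8 CPM with resting platelets, 17.1 to 19.8 CPM with thrombin and 15.6 to 18.4 CPM with vehicle. Of these 13 markers, 12 rose with activated platelets and 8 with resting platelets relative to vehicle. Erythroid markers, 7 genes, summed to 7.6 to 14.2 CPM with activated platelets, 0.75 to 2.98 CPM with resting platelets, at most 0.040 CPM with thrombin and at most 0.071 CPM with vehicle. In the vehicle libraries 2 of the 13 platelet markers were at 0, Gp9 among them, as were 5 of the 7 erythroid markers. Stromal markers, 6 genes with Col1a1 among them, summed to 1971 to 4245 CPM with activated platelets and 2498 to 4980 CPM with vehicle. With resting platelets they summed to 2407 to 4781 CPM and with thrombin to 2341 to 4559 CPM. Of the 5 tested, 0 were called with activated platelets relative to vehicle. The parts of platelet and of stromal RNA in the results on KLF genes were not tested. Replicate 1 of every condition carried Ddx3y at 85.1 to 93.2 CPM and Xist at up to 1.06 CPM, whereas replicates 2 to 4 carried Xist at 1055 to 1292 CPM and Ddx3y at up to 0.27 CPM.

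The sequences in front of the genes that fell are shown here, since the promoter of Klf2 differs from those of Klf3 and Klf6 in the motifs it holds. Each run is the 250 bases before the transcript start in RefSeq on GRCm38.p6, a different build from that of the count table. All 3 lie on the plus strand, at chr8:72318812-72319061 for Klf2, chr5:64803271-64803520 for Klf3 and chr13:5861239-5861488 for Klf6. Capitals mark the MEF2 motif, which is CTA and TAG with any 4 bases between them, the CACCC box, written GGGTG where it lies on the other strand, and the CCAAT box, written ATTGG where it lies on the other strand.
Klf2: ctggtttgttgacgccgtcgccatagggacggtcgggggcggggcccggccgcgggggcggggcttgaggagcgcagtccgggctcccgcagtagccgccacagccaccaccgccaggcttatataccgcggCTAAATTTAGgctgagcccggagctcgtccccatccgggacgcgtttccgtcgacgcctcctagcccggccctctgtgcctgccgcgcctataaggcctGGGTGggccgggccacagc
Klf3: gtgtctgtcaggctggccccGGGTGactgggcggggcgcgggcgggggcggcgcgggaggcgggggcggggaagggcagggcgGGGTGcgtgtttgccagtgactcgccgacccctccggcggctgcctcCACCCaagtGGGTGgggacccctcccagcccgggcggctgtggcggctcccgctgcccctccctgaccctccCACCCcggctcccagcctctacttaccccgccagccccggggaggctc
Klf6: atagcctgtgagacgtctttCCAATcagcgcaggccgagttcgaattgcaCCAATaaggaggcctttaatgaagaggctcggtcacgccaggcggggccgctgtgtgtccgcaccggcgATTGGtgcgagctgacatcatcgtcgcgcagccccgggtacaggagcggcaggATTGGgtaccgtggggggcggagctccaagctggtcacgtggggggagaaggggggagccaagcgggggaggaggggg
RefSeq promoters were found for 8 of the 10 members, not for Klf10 and Klf16. The window of Klf2 alone among the 8 held the MEF2 motif, with its first base at position -118 from the start. MEF2 factors bind this kind of A/T-rich element, and in endothelial cells the kinase ERK5 is known to act on Klf2 through MEF2. Of 32851 windows of the same length over all genes, 3.20% held that motif. Klf3 held 5 CACCC boxes, Klf2 held 1 and Klf6 held 0, against 52.0% of all windows with at least 1. Klf6 held 4 CCAAT boxes and the other 2 windows held 0, against 33.9% of all windows with at least 1. Among the uncalled members with a window, CACCC boxes numbered 3 in Klf7, 1 each in Klf9 and Klf13 and 0 in Klf4 and Klf11. CCAAT boxes numbered 3 in Klf9, 2 each in Klf11 and Klf13 and 0 in Klf4 and Klf7. The GC box, GGGCGG and not marked above, occurred 2 times in Klf2, 6 in Klf3 and 1 in Klf6, against 32.7% of all windows with at least 1. GC content was 71.2% for Klf2, 78.4% for Klf3 and 64.8% for Klf6. All 8 members with a window lay above the median of 52.4% over all windows. Motifs were searched on both strands, and a match describes the letters and not a bound site. The number of boxes per window over all genes, or in windows of like GC content, was not counted.

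Per length the genes covered a wide range. In vehicle libraries Klf6 stood highest, at 102.5 ± 4.97 CPM per kb of exon (SD, n = 4). Klf13 followed at 31.7 ± 0.58, Klf3 at 17.9 ± 1.77, Klf10 at 12.2 ± 1.20 and Klf16 at 10.1 ± 0.32 CPM per kb. Klf11 stood at 6.42 ± 0.48, Klf9 at 4.78 ± 1.23, Klf2 at 4.49 ± 0.88, Klf7 at 3.42 ± 0.54 and Klf4 at 2.72 ± 0.33 CPM per kb. Klf9 and Klf2 were the neighbours in this order that lay within 1 SD of each other, and differences between genes were not tested. Annotated genes that overlap a member averaged at most 0.36 CPM over all 16 libraries. The summed level of the 10 genes was 786 ± 17.4 CPM with activated platelets, 911 ± 30.99 CPM with resting platelets, 950 ± 36.3 CPM with thrombin and 910 ± 21.7 CPM with vehicle. Klf6 made up 40.4% of that sum with activated platelets, 45.9% with resting platelets, 47.7% with thrombin and 47.5% with vehicle.

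**Figure D1:**
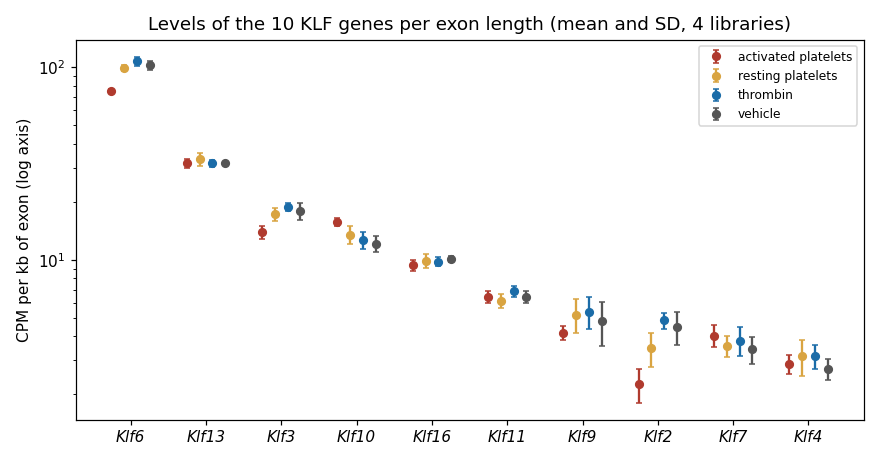
Levels of the 10 KLF genes as CPM per kb of exon on a log axis, ordered by their level in vehicle libraries. Points are means and bars are SDs of 4 libraries per condition, and Klf6 stands above all others in every condition, while Klf2 falls to 2.26 CPM per kb with activated platelets against 4.49 CPM per kb with vehicle.

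Klf2, which restrains inflammatory activation in macrophages and endothelium, showed the largest fold among the 10 in the comparison of activated platelets with vehicle. The gene lies at chr8:73072906-73075498 on the plus strand of GRCm39, and no annotated gene overlaps it. Its levels in replicates 1 to 4 were 3.50, 3.33, 4.96 and 4.63 CPM with activated platelets. Resting platelets gave 5.49, 5.69, 5.84 and 8.19 CPM, thrombin gave 8.15, 8.32, 8.76 and 9.96 CPM, and vehicle gave 7.66, 7.73, 6.77 and 10.5 CPM. All 4 activated platelet libraries lay below all libraries of the other 3 conditions, and the resting platelet libraries overlapped those with thrombin and vehicle. The log2 difference of activated platelets from vehicle was -0.99 ± 0.16 (SE, 95% interval -1.34 to -0.64), with an adjusted p of 0.000314 in edgeR's quasi-likelihood test. Its direction held in every replicate number, with levels 1.37 to 2.32 times lower. Beside it, Ighm, the heavy chain of immunoglobulin M and a B cell marker, stood at 4.93 ± 1.81 CPM with activated platelets and 20.6 ± 4.91 CPM with vehicle (SD, n = 4). Summed over the 9 markers of lymphocytes, cells that also express Klf2, the level was 3.12 to 7.40 CPM with activated platelets, 8.53 to 22.8 CPM with resting platelets, 11.6 to 22.7 CPM with thrombin and 14.0 to 25.6 CPM with vehicle. Without Ighm the other 8 summed to 0.108 to 0.208 CPM with activated platelets and 0.136 to 0.183 CPM with vehicle. Of the 9 markers 5 were at 0 in the activated platelet libraries, Cd3d, Cd3e, Cd3g and Cd8a among them, and 2 in the vehicle libraries. These named markers were near the floor with vehicle too, where Cd8a had 2 summed counts, Cd3d had 1, and Cd3e and Cd3g had 0. The part of lymphocyte RNA in the fall of Klf2 was not tested. In bulk samples, fewer cells of a type and less RNA per cell cannot be told apart.

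Klf6 is the most abundant member, and its fall had the smallest p of the 10. It lies at chr13:5911488-5920392 on the plus strand of GRCm39. Replicates 1 to 4 had 317, 329, 309 and 316 CPM with activated platelets. They had 431, 433, 413 and 398 CPM with resting platelets, 458, 486, 443 and 427 CPM with thrombin, and 422, 461, 434 and 412 CPM with vehicle. The activated platelet libraries lay close together and below every other library, while the other 3 conditions overlapped. The log2 difference from vehicle was -0.44 ± 0.05 (SE, 95% interval -0.55 to -0.34), with an adjusted p of 5.61e-06 in edgeR's quasi-likelihood test. Within replicate numbers the level was 1.30 to 1.40 times lower than with vehicle.

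Klf3, the CtBP-binding repressor, lies at chr5:64960864-64990246 on the plus strand of GRCm39. Its levels were 71.0, 67.6, 79.9 and 78.6 CPM with activated platelets, in the order of replicates 1 to 4. Resting platelets gave 93.3, 82.6, 97.1 and 96.2 CPM, thrombin gave 106, 94.3, 103 and 100.5 CPM, and vehicle gave 96.4, 83.0, 106 and 98.5 CPM. The activated platelet libraries lay below all others, with the highest of them at 79.9 CPM against a lowest of 82.6 CPM elsewhere. The log2 difference from vehicle was -0.37 ± 0.07 (SE, 95% interval -0.53 to -0.21), with an adjusted p of 0.00151 in edgeR's quasi-likelihood test.

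Klf10, a gene known as an early target of TGF-beta and a Sin3-binding repressor, was the member that rose. It lies at chr15:38291708-38300955 on the minus strand of GRCm39. Replicates 1 to 4 had 60.2, 66.2, 61.0 and 65.5 CPM with activated platelets. They had 49.8, 62.4, 53.8 and 51.3 CPM with resting platelets, 51.1, 58.2, 45.9 and 48.6 CPM with thrombin, and 46.6, 56.0, 45.5 and 47.4 CPM with vehicle. The activated platelet libraries lay above all thrombin and vehicle libraries, but replicate 2 of the resting platelets lay within their range. The log2 difference from vehicle was 0.37 ± 0.08 (SE, 95% interval 0.19 to 0.55), with an adjusted p of 0.00358 in edgeR's quasi-likelihood test. Replicate 2 was the highest of the 4 in each condition, and within replicate numbers the level was 1.18 to 1.38 times that of vehicle.

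**Figure D2:**
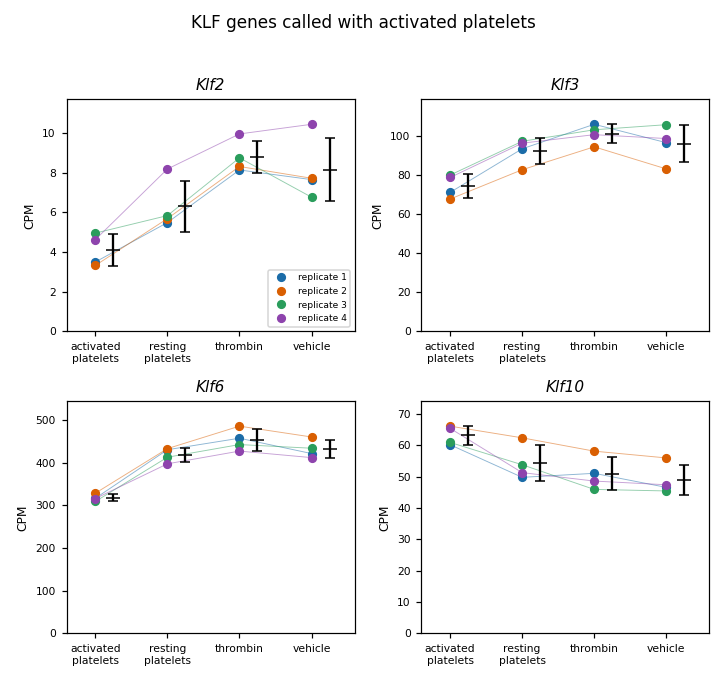
CPM of Klf2, Klf3, Klf6 and Klf10 in each of the 16 libraries, by condition, with lines joining libraries of the same replicate number. Black marks are the mean and SD of 4 libraries, and the activated platelet libraries of Klf2, Klf3 and Klf6 lie below all other libraries while those of Klf10 lie above all thrombin and vehicle libraries.

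Set against all genes, 4 of 10 members were called with activated platelets relative to vehicle, where 25.8% of all genes tested were called. Of all genes 12.2% rose and 13.6% fell. The median log2 difference of the 10 members was -0.05, against 0.00 over all genes. With so broad a change over the transcriptome, the count of KLF genes describes the family and does not set it apart. When the replicate number entered the fit as a block, 6 members and 42.5% of all genes were called, with Klf7 higher (adjusted p = 0.000204) and Klf9 lower (adjusted p = 0.0466) added to the 4.

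The 6 members that did not pass the test had activated platelet and vehicle libraries that overlapped, and the share of all genes with such overlap was not counted. Klf7, a factor best known from neurons and adipose tissue, had 36.2, 27.9, 31.01 and 37.1 CPM with activated platelets and 30.6, 21.6, 28.8 and 31.1 CPM with vehicle. It was higher with activated platelets in 4 of 4 replicate numbers while the conditions overlapped, with replicate 4 highest and replicate 2 lowest in each condition. Its log2 difference was 0.23 ± 0.14 (SE, adjusted p = 0.232 in edgeR's quasi-likelihood test). Klf9, a gene induced by glucocorticoids in many cells, had 19.4, 20.5, 16.9 and 18.1 CPM with activated platelets. It had 26.02, 28.5, 19.1 and 19.5 CPM with resting platelets, 23.2, 30.8, 20.9 and 21.5 CPM with thrombin, and 21.5, 29.2, 17.7 and 17.3 CPM with vehicle. The activated platelet libraries lay below all thrombin libraries but overlapped those with resting platelets and vehicle. Klf4 had 20.0, 24.95, 19.7 and 22.3 CPM with activated platelets and 23.1, 20.8, 17.1 and 21.0 CPM with vehicle, which overlapped, and its log2 difference was 0.08 ± 0.14 (SE, adjusted p = 0.722). Its interval of -0.22 to 0.39 leaves room for a change in either direction.

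In the fit without the replicate block, Klf11, Klf13 and Klf16 showed the narrowest intervals among these 6. With the block the SE of Klf7 was 0.046, against 0.047 for Klf11, 0.034 for Klf13 and 0.054 for Klf16. Klf11, a TGF-beta-inducible relative of Klf10, averaged 25.6 ± 1.73 CPM with activated platelets and 25.6 ± 1.91 CPM with vehicle (SD, n = 4). Its log2 difference had a 95% interval of -0.15 to 0.16. Klf13, known in T cells as an activator of the chemokine gene Ccl5, averaged 203 ± 11.6 CPM with activated platelets and 203 ± 3.72 CPM with vehicle, with an interval of -0.11 to 0.12. Klf16 averaged 24.8 ± 1.53 CPM with activated platelets and 26.8 ± 0.85 CPM with vehicle, with a log2 difference of -0.11 ± 0.06 (SE, adjusted p = 0.221 in edgeR's quasi-likelihood test). It was lower in 4 of 4 replicate numbers, while the libraries overlapped.

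**Figure D3:**
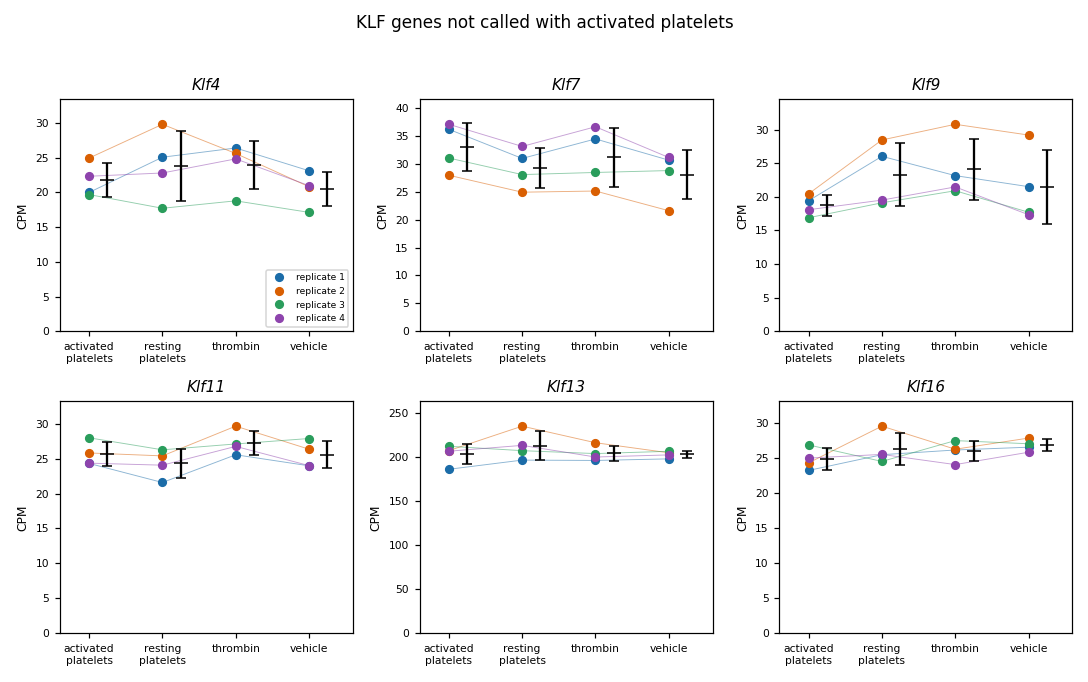
CPM of Klf4, Klf7, Klf9, Klf11, Klf13 and Klf16 in each of the 16 libraries, by condition, with lines joining libraries of the same replicate number. Black marks are the mean and SD of 4 libraries, and activated platelet and vehicle libraries overlap for all 6 genes, while Klf7 keeps replicate 4 highest and replicate 2 lowest in each condition.

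Resting platelets left all 10 members short of the threshold relative to vehicle, where 3.39% of all genes were called. At an unadjusted p under 0.05 the test counted 1 member, Klf2, and 3001 of all 15610 genes. DESeq2 and limma-voom also called 0 members. Klf2 averaged 6.30 ± 1.27 CPM with resting platelets and 8.15 ± 1.595 CPM with vehicle (SD, n = 4), lower in 4 of 4 replicate numbers. Its log2 difference was -0.37 ± 0.16 (SE, adjusted p = 0.222 in edgeR's quasi-likelihood test), and with the replicate block the adjusted p was 0.00811. Klf10 averaged 54.3 ± 5.64 CPM with resting platelets and 48.9 ± 4.82 CPM with vehicle, higher in 4 of 4 numbers. Its log2 difference of 0.15 ± 0.08 had an adjusted p of 0.340, and 0.0168 with the replicate block. With the block those 2 of 10 members were called, 1 in each direction, against 21.5% of all genes. Klf4 was higher in 4 of 4 numbers with resting platelets, at 23.9 ± 5.02 CPM against 20.5 ± 2.49 CPM with vehicle, with adjusted p = 0.448, or 0.0534 with the block.

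Thrombin alone called 0 of the 10 members relative to vehicle, where 0.288% of all genes were called. At an unadjusted p under 0.05 it counted 0 members and 1786 of all 15610 genes. DESeq2, limma-voom and the fit with the replicate block each called 0 members. With the block 8.23% of all genes were called. Log2 differences ran from -0.05 for Klf16 to 0.22 for Klf4, which averaged 23.9 ± 3.47 CPM with thrombin and 20.5 ± 2.49 CPM with vehicle. Klf2 averaged 8.80 ± 0.82 CPM with thrombin against 8.15 ± 1.595 CPM with vehicle, and its interval of -0.23 to 0.45 does not reach the log2 difference of -0.99 seen with activated platelets. For Klf6 the interval with thrombin was -0.03 to 0.17, which likewise does not reach the -0.44 seen with activated platelets. All these comparisons share the vehicle libraries.

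The comparison of activated with resting platelets has platelets added in both conditions. Their markers still differed, at a sum of 175 ± 33.5 CPM with activated and 38.7 ± 11.8 CPM with resting platelets (SD, n = 4). The comparison does not separate activation from this difference in platelet RNA, whose part in the results was not tested. Klf2, Klf3 and Klf6 fell, which made 3 of 10 members called, against 15.8% of all genes called either way and 8.49% called lower. Klf6 had the smallest p, at 318 ± 8.06 CPM with activated platelets and 419 ± 16.7 CPM with resting platelets (SD, n = 4), a log2 difference of -0.40 ± 0.05 (SE, adjusted p = 4.21e-05 in edgeR's quasi-likelihood test). Klf3 averaged 74.3 ± 5.92 CPM with activated platelets and 92.3 ± 6.67 CPM with resting platelets, a log2 difference of -0.31 ± 0.07 (adjusted p = 0.00881). Klf2 averaged 4.11 ± 0.81 CPM with activated platelets and 6.30 ± 1.27 CPM with resting platelets, a log2 difference of -0.62 ± 0.17 (adjusted p = 0.0187). The libraries of both conditions did not overlap for these 3 genes, and how common that is over all genes was not counted. The call of Klf2 depended on single libraries. Its adjusted p was 0.0669 without activated platelet replicate 1, 0.0552 without activated platelet replicate 2 and 0.0660 without resting platelet replicate 4. Without replicate 1 or 2 in all conditions it was 0.111 or 0.0868, and that of Klf3 was 0.108 without replicate 1 and 0.0512 without replicate 4. Klf10 averaged 63.2 ± 3.05 CPM with activated platelets and 54.3 ± 5.64 CPM with resting platelets, a log2 difference of 0.22 ± 0.08 with adjusted p = 0.0905. Klf10 had an adjusted p of 0.0268 without resting platelet replicate 2, which was its highest library in that condition, and of 0.00444 without replicate 2 in all conditions. With the replicate block 6 members and 34.5% of all genes were called, with Klf10 higher (adjusted p = 0.000349), Klf7 higher (adjusted p = 0.00467) and Klf9 lower (adjusted p = 0.00144).

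Against thrombin alone, activated platelets called the same 4 members as against vehicle, with 25.4% of all genes called, 11.9% higher and 13.5% lower. Klf2 showed a log2 difference of -1.10 ± 0.16 (SE, adjusted p = 0.00012 in edgeR's quasi-likelihood test), or 2.15-fold lower. Klf6 showed -0.51 ± 0.05 (adjusted p = 1.19e-06), Klf3 -0.44 ± 0.07 (adjusted p = 0.000328) and Klf10 0.31 ± 0.08 (adjusted p = 0.0118) as log2 differences. That of Klf10 had an adjusted p of 0.0803 without replicate 3 and 0.102 without replicate 4 in all conditions. Klf9 averaged 18.7 ± 1.55 CPM with activated platelets and 24.1 ± 4.57 CPM with thrombin, with adjusted p = 0.136, or 0.000216 with the replicate block, which called 5 of 10 members and 41.6% of all genes. Between resting platelets and thrombin 0 of 10 members and 2.09% of all genes were called. At an unadjusted p under 0.05 that test counted 3 members and 2038 of all 15610 genes. DESeq2 and limma-voom called 0 members. With the block 4 were called, against 13.2% of all genes either way and 6.27% lower. All 4 were lower with resting platelets, namely Klf2 (adjusted p = 0.00112), Klf3 (0.0173), Klf6 (0.00743) and Klf11 (0.0205).

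Whether thrombin acts differently when platelets are present was tested as the interaction, the difference of activated from resting platelets minus the difference of thrombin from vehicle. It called 2 of 10 members, both negative, against 9.93% of all genes called either way and 5.37% called negative. The difference in platelet markers between activated and resting platelets enters here too, and its part was not tested. For Klf6 the interaction was -0.47 ± 0.07 on the log2 scale (SE, adjusted p = 0.000671 in edgeR's quasi-likelihood test). It comes from a log2 difference of -0.40 with platelets and of 0.07 without them. For Klf3 it was -0.39 ± 0.10 (adjusted p = 0.0271), from -0.31 with platelets and 0.07 without. That call was close to the threshold and was lost when any of 8 of the 16 libraries was left out, with adjusted p up to 0.0616, and without replicate 1, 3 or 4 in all conditions (0.262, 0.0574 and 0.0939). The 8 were activated platelet replicates 1 and 2, resting platelet replicates 1, 3 and 4, thrombin replicates 1 and 3 and vehicle replicate 1. Klf2 had the largest interaction, at -0.73 ± 0.23 with adjusted p = 0.0565. It was 0.0420 without activated platelet replicate 3, 0.0256 without vehicle replicate 4, 0.0450 without replicate 4 in all conditions and 0.0315 in DESeq2. With the replicate block 29.1% of all genes were called either way and 15.9% negative. It called 5 members, all negative, since Klf2 (adjusted p = 0.000396), Klf4 (0.0173) and Klf9 (0.00064) joined Klf3 and Klf6. Klf10 showed 0.16 ± 0.12 (adjusted p = 0.456, or 0.0592 with the replicate block). A difference in its response to thrombin with and without platelets was thus not detected in either fit.

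**Figure D4:**
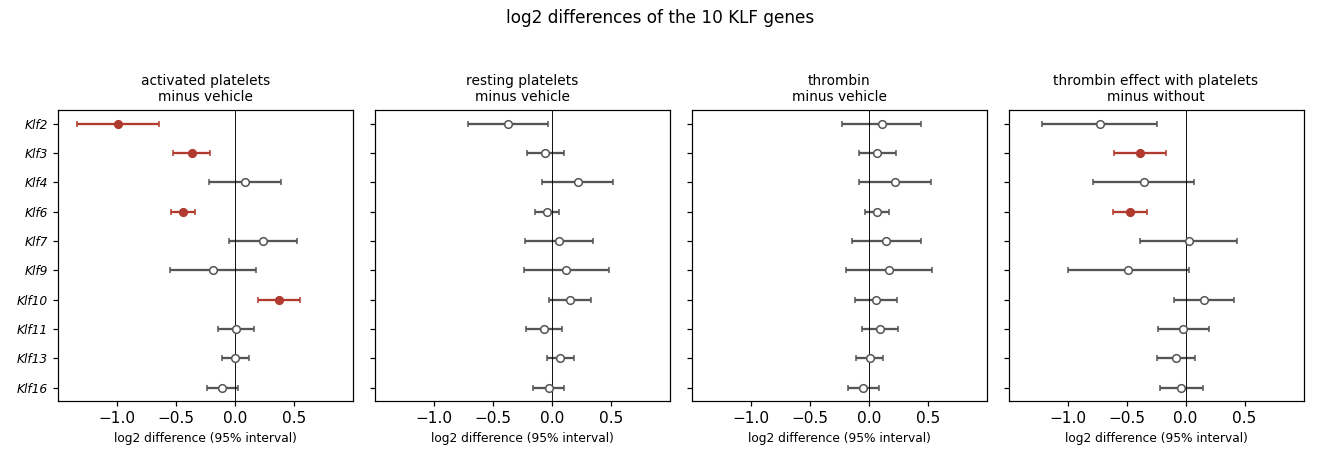
Log2 differences of the 10 KLF genes with 95% intervals for activated platelets, resting platelets and thrombin, each minus vehicle, and for the thrombin effect with platelets minus that without. Filled red points passed an adjusted p of 0.05, which Klf2, Klf3, Klf6 and Klf10 did in the first panel, none in the resting platelet and thrombin panels, and Klf3 and Klf6 in the last.

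The members did not all vary together over the 16 libraries. On log2 CPM, Klf2 correlated with Klf3 at r = 0.841 and with Klf6 at 0.761, and Klf3 with Klf6 at 0.747. Klf10 correlated at -0.867 with Klf3, -0.734 with Klf2 and -0.603 with Klf6. These coefficients describe libraries that share conditions and replicate numbers, and they carry no test. Replicate number moved with several members. Klf6, Klf9 and Klf10 were highest in replicate 2 in all 4 conditions, Klf7 was highest in replicate 4 and lowest in replicate 2, and Klf4 was lowest in replicate 3. Klf3 was lowest in replicate 2 in all 4 conditions, and Klf11 and Klf13 were lowest in replicate 1.

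Among 10503 genes, the 3 with the profile most like each member were listed by Pearson correlation over the 16 libraries. Klf6 stood nearest to Il6st, the shared receptor chain gp130 of the IL-6 family, at r = 0.990. Next came Kcnj2, an inward rectifier potassium channel, at 0.986 and Cd180, a Toll-like receptor relative, at 0.984. Il6st averaged 117 CPM with activated platelets and 226 CPM with vehicle, and Kcnj2 averaged 8.27 CPM with activated platelets and 69.9 CPM with vehicle. Both fell further than Klf6 itself, with log2 differences of -0.96 and -3.08. Klf3 stood nearest to Kctd12 (r = 0.964), Lifr (0.950), the receptor of leukaemia inhibitory factor, and Wls (0.948). Tspyl4 (0.931) and Gbp8 (0.924) were among the 3 nearest to Klf2, and Klf10 stood nearest to Chst3 (0.960), Niban2 (0.935) and Csf2rb2 (0.929). The nearest genes of Klf7 were Col11a1 (0.946), Traf4 (0.934) and Lpar1 (0.933), and those of Klf9 were Psmd8 (0.917), Flrt2 (0.912) and Egr2 (0.908). None of these 6 passed the test with activated platelets relative to vehicle. The first of the list was Stau2 (0.833) for Klf4, Cd300ld2 (0.903) for Klf11, Cdk13 (0.871) for Klf13 and Med15 (0.835) for Klf16.

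Apart from Klf8, the rest of the family averaged at most 0.92 CPM in any condition. The filter on low counts kept 13 of 17 Klf genes, and of the 7 that are not among the 10 members 3 did, Klf5, Klf8 and Klf12. Klf14 and Klf17 had no counts in any library, and Klf1 and Klf15 averaged at most 0.18 CPM in any condition. Klf8, like Klf3 a CtBP-binding repressor, fell to 5.60 ± 0.74 CPM with activated platelets, against 8.33 ± 1.14 CPM with vehicle (SD, n = 4). Its log2 difference was -0.57 ± 0.13 (SE, adjusted p = 0.00444 in edgeR's quasi-likelihood test), and it was called under each of the 18 alternatives tried. It was the 1 of 3 tested that fell, against 13.6% of all genes. With the replicate block Klf12 fell as well (adjusted p = 0.0321), at 0.49 CPM with activated platelets and 0.84 CPM with vehicle. Of the related Sp factors, which bind the same GC-rich elements, 5 of 9 were tested and 2 rose with activated platelets, against 12.2% of all genes. With the replicate block 3 rose and 1 fell, with Sp4 higher (adjusted p = 0.00458) and Sp3 lower (adjusted p = 0.0114) added. That fit called 42.5% of all genes, either way. Sp1 averaged 189 ± 9.55 CPM with activated platelets and 166 ± 4.23 CPM with vehicle (adjusted p = 0.00255). Sp2 averaged 35.1 ± 1.09 CPM with activated platelets and 32.0 ± 1.04 CPM with vehicle (adjusted p = 0.0235), a call that was lost under 10 of 18 alternatives.

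Cofactors that KLF proteins are known to recruit, or that act on them, made up 12 tested genes, of which 1 rose and 3 fell with activated platelets relative to vehicle, against 12.2% of all genes that rose and 13.6% that fell. Their median log2 difference was -0.02, against 0.00 over all genes. Wwp1, a ubiquitin ligase known to act on KLF2 and KLF5 proteins, fell most, to 241 ± 37.0 CPM with activated platelets, against 542 ± 66.2 CPM with vehicle (SD, n = 4). This was a 2.26-fold fall, a log2 difference of -1.17 ± 0.13 (SE, adjusted p = 6.59e-06 in edgeR's quasi-likelihood test), and its interaction was -1.09 ± 0.18 (adjusted p = 0.00156). Sap30, a subunit of the Sin3 complex, fell by 0.42 on the log2 scale (adjusted p = 0.000439), and Kat2b, the acetyltransferase PCAF, fell by 0.34 (adjusted p = 0.000152). Sin3a, the scaffold of the Sin3 complex, rose by 0.16 (adjusted p = 0.0138), a call lost without replicate 4 (adjusted p = 0.0510). Ctbp1 and Ctbp2, the corepressors of Klf3, did not pass, with log2 differences of -0.10 and 0.00, but with the replicate block Ctbp1 fell (adjusted p = 0.0186). With resting platelets and with thrombin 0 of the 12 were called relative to vehicle. With the replicate block the counts were 2 higher and 4 lower with activated platelets, 2 higher and 1 lower with resting platelets, and 0 with thrombin. Of all genes that block called 42.5% with activated platelets, 21.5% with resting platelets and 8.23% with thrombin, either way.

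The ERK5 and MEF2 route, which drives Klf2 and Klf4 in endothelial cells, gave 3 genes that rose and 4 that fell among 10 tested with activated platelets, against 12.2% of all genes that rose and 13.6% that fell. The median log2 difference was -0.15, against 0.00 over all genes. Mef2d, a MEF2 factor, rose to 198 ± 14.6 CPM with activated platelets, against 136 ± 5.39 CPM with vehicle (log2 difference 0.55 ± 0.06, adjusted p = 7.16e-06 in edgeR's quasi-likelihood test). Mapk7, which encodes ERK5 itself, fell to 55.1 ± 4.46 CPM with activated platelets, against 69.4 ± 1.33 CPM with vehicle (adjusted p = 0.00106). Hdac7, a class IIa deacetylase that binds MEF2 factors, fell to 22.1 ± 2.65 CPM with activated platelets, against 37.9 ± 4.90 CPM with vehicle (adjusted p = 0.000153). Mef2c fell by 0.32 on the log2 scale (adjusted p = 0.0132) and Map2k5, the kinase that activates ERK5, fell by 0.20 (adjusted p = 0.0316). Mef2a rose by 0.21 (adjusted p = 0.0336) and the upstream kinase Map3k2 rose by 0.18 (adjusted p = 0.0311). The calls of Mef2a, Map3k2 and Mef2c were lost under 9, 7 and 3 of 18 alternatives. With resting platelets and with thrombin 0 of the 10 were called relative to vehicle. With the replicate block 3 rose and 6 fell with activated platelets, and 1 rose and 3 fell with resting platelets. With thrombin and the block Map3k2 rose (adjusted p = 0.0418) and Hdac7 fell (adjusted p = 0.00278). Of all genes the block called 42.5% with activated platelets, 21.5% with resting platelets and 8.23% with thrombin, either way.

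Genes reported elsewhere as targets of KLF2, KLF4, KLF6 or KLF10 gave 6 that rose and 1 that fell among 14 tested of 18, with activated platelets relative to vehicle, against 12.2% of all genes that rose and 13.6% that fell. Their median log2 difference was 0.20, against 0.00 over all genes. Smad7, an inhibitor of TGF-beta signalling that KLF10 represses, averaged 20.9 ± 1.44 CPM with activated platelets and 9.87 ± 1.28 CPM with vehicle (SD, n = 4). Its log2 difference was 1.08 ± 0.12 (SE, adjusted p = 4.72e-06 in edgeR's quasi-likelihood test). S1pr1, a sphingosine-1-phosphate receptor that KLF2 induces in T cells, averaged 235 ± 12.6 CPM with activated platelets and 128 ± 11.8 CPM with vehicle (log2 difference 0.88 ± 0.07, adjusted p = 1.97e-07). Arg1, an arginase gene of alternative polarisation, rose at a low level, to 1.00 ± 0.22 CPM with activated platelets, against 0.144 ± 0.097 CPM with vehicle (adjusted p = 0.000143). Tgfbr1 and Cdkn1a rose as well. Smad7, S1pr1 and Tgfbr1 also rose with resting platelets, in which 4 of the 14 were called, against 3.39% of all genes, and with thrombin 0 were. Mrc1, the mannose receptor, fell by 0.57 on the log2 scale with activated platelets (adjusted p = 0.0334), a call lost under 9 of 18 alternatives. Thbd, the thrombomodulin gene that KLF2 induces in endothelium, averaged 23.7 ± 4.24 CPM with activated platelets and 23.8 ± 1.48 CPM with vehicle (adjusted p = 0.989). With the replicate block 6 rose and 3 fell with activated platelets, 5 rose and 2 fell with resting platelets, and 2 rose and 1 fell with thrombin. Of all genes the block called 42.5% with activated platelets, 21.5% with resting platelets and 8.23% with thrombin, either way.

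**Figure D5:**
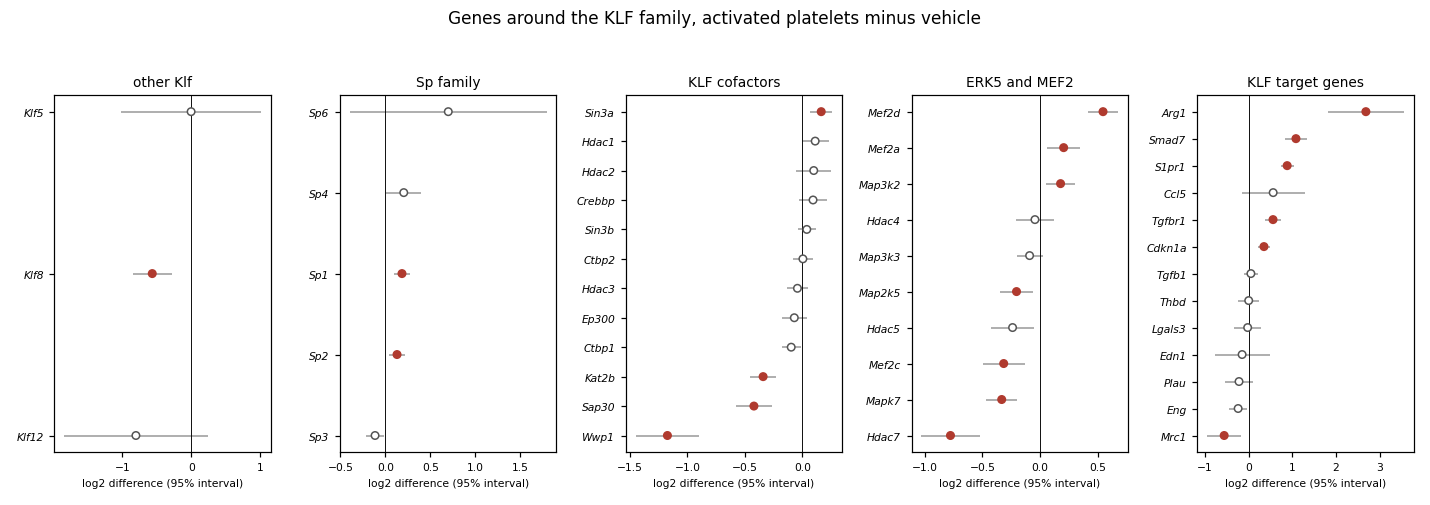
Log2 differences of activated platelets minus vehicle with 95% intervals for the other Klf genes, the Sp family, KLF cofactors, the ERK5 and MEF2 genes and 13 of the 14 KLF target genes that passed the filter on low counts. Filled red points passed an adjusted p of 0.05, from -1.17 for Wwp1 to 2.69 for Arg1, and horizontal scales differ between panels.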

How the data were processed

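The authors deposited 1 table of estimated counts per gene, without normalization, for 16 poly(A) RNA libraries in 4 conditions. Tools named in the submitters' processing notes are featureCounts 1.6.4, STAR 2.7.2b and cutadapt 2.5; how strand and multi-mapping reads were handled is not given in the sources. The file's coordinates are on GRCm39. Of the deposited values above 0, 25.5% were not whole, although whole counts had been assumed, so all were rounded, which changed the summed count by 0.000694%. All 16 value columns belong to samples of the series.

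filterByExpr by group left 15610 genes, and counts were scaled by TMM. In R 4.3.3, edgeR 4.0.16's robust quasi-likelihood test was fitted to all 16 libraries as 4 groups with no block, two-sided, with Benjamini-Hochberg adjustment over all genes and a threshold of 0.05. SEs come from the F statistic. DESeq2 1.42.0, limma-voom (limma 3.58.1), other scaling, no filter, fits of the compared groups only, the replicate block and leaving out libraries were alternatives. For correlations, log2 CPM had a prior count of 2.

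Named were all 10 members, and from each list up to 3 risen and 3 fallen genes with the smallest p relative to vehicle. Map2k5, Thbd, Tgfbr1, Cdkn1a, Arg1, Ctbp1, Ctbp2, Ighm and the genes at 0 were chosen after their values were seen. Some genes that this rule names are not reported here. The members and lists were chosen with earlier results of these data known.

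Replicate numbers are shared between conditions. Deviations from the condition means correlated at 0.295 to 0.701 over the 24 pairs that share a number and at -0.422 to 0.226 over the other 72 pairs. Each of the 16 libraries had its best match among those of its own number, so the numbers were taken to pair the libraries. This comes from the data and not from the labels. The main fits, with their SEs and intervals, leave this pairing out. Of the fits, only that with the replicate block uses it. The labels do not state separate animals or cultures. Ddx3y and Xist set replicate 1 apart from replicates 2 to 4, so at least these come from different animals, while the spread among replicates 2 to 4 may be technical, and p-values reflect the spread among these samples. Chi-square per degree of freedom was 8.05 to 34.0 over the 24 pairs within a condition, so no library was counted as a duplicate.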

Additional observations from a re-analysis of the deposited data

Results flagged for a closer look

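The replicate 4 library with resting platelets stood apart in Klf2, at 8.19 CPM against 5.49 to 5.84 CPM in replicates 1 to 3, a gap past Dixon's 95% limit for 4 values. It was 1 of 40 sets of 4 libraries examined, and chance alone sets apart about 1 in 20. Without that library the log2 difference of activated from resting platelets was -0.46 (adjusted p = 0.0660 in edgeR's quasi-likelihood test), against -0.62 with it.

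The thrombin effect on Klf6 differed with and without platelets, by -0.4678 on the log2 scale, and that on Klf3 by -0.3863, both past the threshold of the interaction test. That of Klf6 was called under every alternative run, with adjusted p up to 0.0459, whereas that of Klf3 was not.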

How the results depend on the processing

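The replicate block added calls: 2 in place of 0 members for resting platelets against vehicle, 6 in place of 3 for activated against resting platelets, 4 in place of 0 for resting platelets against thrombin, and 5 in place of 2 for the interaction. Leaving out libraries gave 1 to 4 members for activated against resting platelets and 1 to 3 for the interaction. For activated platelets against vehicle, the calls of Klf2, Klf3, Klf6 and Klf10 held under all 18 alternatives, with adjusted p up to 0.00846, 0.0310, 0.000887 and 0.0486. Klf13, near 0 there, reversed to -0.0004319 in limma-voom and -0.00089 with the replicate block, and ranged from -0.0214 to 0.0454 with libraries left out. Klf11 ranged from -0.0419 to 0.0481 there, and Klf10 with thrombin against vehicle ranged from -0.00844 to 0.132. The cause was not tested. Over 57 results on single genes and all alternatives, 975 values kept direction and call, 59 lost the call, 21 gained it and 13 changed sign.
Over all genes the replicate block gave 6635 calls in place of 4031 for activated platelets against vehicle, 3360 in place of 529 for resting platelets against vehicle, 1285 in place of 45 for thrombin against vehicle, 5391 in place of 2472 for activated against resting platelets, 6499 in place of 3960 for activated platelets against thrombin, 2057 in place of 326 for resting platelets against thrombin and 4535 in place of 1550 for the interaction. Without replicate 1 these counts were 2522, 58, 4, 972, 2422, 83 and 264. For resting platelets against vehicle, 335 were called with no filter, 864 in DESeq2 and 188 in a fit of those groups only. For thrombin against vehicle DESeq2 called 131 and the fit of those groups only called 11, and for resting platelets against thrombin they called 509 and 179. A fit of only the groups compared has no meaning for the interaction, which uses all 4. Scaling moved the median of all genes by less than 0.1 on the log2 scale. The depth limits Klf2 most, with 477 counts summed over the activated platelet libraries and 862 over the vehicle libraries.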
